A study of Mus musculus with 27 samples.

Results

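The 8 genes described here encode liver enzymes that break down serine, threonine, histidine and glycine: Sds, Sdsl, Hal, Uroc1, Amdhd1, Ftcd, Gldc and Amt. They were chosen by gene symbol from the 21823 genes of the expression table, and all 8 passed the filter on low values that left 12952 genes for testing. RNA was sequenced from liver lobular zones 1, 2 and 3 of wild-type female mice labelled C57BL/6 (C57BL/6N in the study's methods), cut from frozen sections by laser microdissection. Non-pregnant (NP) mice were compared with pregnant mice taken 8 or 16 days post coitum (dpc8, dpc16). Each of the 9 combinations of stage and zone has 3 libraries, 27 in all, and no group carried a transgene, a deletion or a treatment. In the study, zone 1 surrounds the portal vein, zone 2 is the parenchyma in the middle, and zone 3 surrounds the central vein.

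Blood enters a liver lobule at the portal vein and leaves at the central vein, and hepatocytes along this path differ in the enzymes they make. Breakdown of amino acids for glucose and urea synthesis is a known activity of periportal hepatocytes, while pericentral hepatocytes are known for glutamine synthesis and drug metabolism. Sds (serine dehydratase) converts serine to pyruvate and also acts on threonine, and Sdsl is its close relative. Histidine is broken down in sequence by Hal (histidine ammonia-lyase), Uroc1 (urocanate hydratase), Amdhd1 (imidazolonepropionase) and Ftcd, which passes the formimino group to folate. Gldc and Amt are the glycine decarboxylase and aminomethyltransferase subunits of the mitochondrial glycine cleavage system.

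Levels are FPKM (fragments scaled to the length of the transcript and to the size of the library). The low FPKM values fell on steps that correspond to an estimated 7.53 to 33.3 M reads per library (M for mega), and 1 read on a transcript of 1 kilobase was worth 0.03 to 0.133 FPKM. Between zones 1 and 3 the hepatocyte zone markers followed the labels. The central marker Glul lay between 1349 and 3264 FPKM in zone 3 and between 23.6 and 145 FPKM in zone 1. In the limma tests below, 10, 11 and 11 of 11 pericentral markers were lower in zone 1 than in zone 3 (NP, dpc8 and dpc16). Of 11 periportal markers, 7, 7 and 10 were higher. Zones 1 and 2 were less separated: 5, 4 and 4 pericentral markers were lower in zone 1, and 0, 0 and 1 periportal markers were higher. The shares of all genes passing are given below. However, 6 libraries stood apart from the other 21. Their summed FPKM of 4 Y-linked genes was 7.92 to 23.2, against at most 2.97 in the others, although all mice are labelled female. Their summed FPKM of 13 connective tissue and smooth muscle markers was 1040 to 5012, against 94.2 to 603. They are replicate 1 of NP zone 1, replicate 2 of NP zone 3, replicate 1 of dpc8 zone 1, replicate 2 of dpc8 zone 2, replicate 3 of dpc16 zone 2 and replicate 3 of dpc16 zone 3. The FPKM sum over all genes was 834568 to 988500 in the dpc16 libraries outside these 6, and at most 704327 in NP and dpc8 libraries. In replicate 3 of dpc16 zones 2 and 3 it was 523854 and 573644. The main tests did not adjust for these sums. Many results are given with and without these 6 libraries, but the sizes of several differences are given with all libraries only. Some results are also given with a connective tissue score (the mean log2(FPKM + 1) of those 13 markers) as a covariate or with single libraries left out.

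Of the 8 genes, 4 form neighbouring pairs in the mm10 genome. Sds (chr5:120476526-120483932, plus strand) and Sdsl (chr5:120458186-120472810, minus strand) point away from each other across 3715 bases. Hal (chr10:93488768-93519304, plus strand) and Amdhd1 (chr10:93523338-93540033, minus strand) point toward each other across 4033 bases. Ftcd (chr10:76575648-76590338) and Uroc1 (chr6:90333284-90364551) are on the plus strand, as is Amt (chr9:108296853-108302302), and Gldc (chr19:30098447-30175429) is on the minus strand. On the opposite strand, the last 651 bases of Sds overlap Plbd2, 1062 bases within Sds overlap the antisense gene Gm15690, and 378 bases within Gldc overlap the pseudogene Rpl31-ps20. The use of strand in counting is not given in the sources used here, so reads in those stretches cannot be assigned with certainty.

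RefSeq promoter sequences (GRCm38.p6) were found for 6 of the 8 genes, all but Sds and Sdsl. Those of 3 genes are shown as examples of different zone patterns: Hal was low in zone 3, Uroc1 kept a measurable level there, as some other members did, and Amt did not differ detectably between zones. Bases beyond the first annotated start were left out. Capitals mark matches on either strand to the CCAAT box, to the TATA box searched as TATAAA, to the TCF/LEF-type motif searched as CTTTGAT or to the CREB-type motif searched as TGACGTCA. The marked matches do not overlap.
Hal (chr10:93488518-93488767, plus strand): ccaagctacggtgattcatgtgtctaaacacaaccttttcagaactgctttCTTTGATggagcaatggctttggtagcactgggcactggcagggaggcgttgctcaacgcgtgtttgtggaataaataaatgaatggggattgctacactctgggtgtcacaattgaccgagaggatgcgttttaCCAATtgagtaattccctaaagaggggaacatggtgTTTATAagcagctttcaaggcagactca
Uroc1 (chr6:90333039-90333283, plus strand): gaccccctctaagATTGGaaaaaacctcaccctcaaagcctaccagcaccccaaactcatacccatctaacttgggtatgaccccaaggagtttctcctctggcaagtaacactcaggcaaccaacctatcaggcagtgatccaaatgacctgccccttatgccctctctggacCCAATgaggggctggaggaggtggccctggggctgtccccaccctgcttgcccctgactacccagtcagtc
Amt (chr9:108296655-108296852, plus strand): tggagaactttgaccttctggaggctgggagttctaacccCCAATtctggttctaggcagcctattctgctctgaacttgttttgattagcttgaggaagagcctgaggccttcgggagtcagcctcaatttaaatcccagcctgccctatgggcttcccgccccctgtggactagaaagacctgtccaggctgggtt
The Hal window held the CCAAT box, the TCF/LEF-type motif and, on the opposite strand, the TATA box. The Uroc1 window held CCAAT on each strand and the Amt window held CCAAT only. Of the windows not printed, that of Ftcd held the TATA box, that of Gldc held CCAAT on the opposite strand and that of Amdhd1 held no match. Ftcd, like Uroc1, kept a measurable level in zone 3 (24.2 to 55.8 FPKM). Among 32851 promoter windows of 250 bases, the CCAAT box was in 33.8%, the TATA box in 12.4%, the TCF/LEF-type motif in 3.21% and the CREB-type motif in 1.55%; the printed Uroc1 and Amt windows are shorter, at 245 and 198 bases. These matches describe the letters of the windows and are not evidence of binding.

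The first question was how the genes differed between the zones at each stage. For 7 of the 8 genes, mean FPKM fell from zone 1 through zone 2 to zone 3 at every stage, and Amt was the exception. In limma with Benjamini-Hochberg adjustment over all 12952 genes, 7 genes were higher in zone 1 than in zone 3 in NP mice, 4 at dpc8 and 6 at dpc16. Over all genes, 1.34% passed this test in NP mice, 1.61% at dpc8 and 1.55% at dpc16. The median difference of the members other than Sdsl on the log2(FPKM + 1) scale was 2.35 in NP, 1.92 at dpc8 and 2.68 at dpc16, against 0.03, 0.08 and -0.02 over all genes tested. Without the 6 libraries, all members but Amt passed at each stage, 7 of 8 each time, against 1.81%, 2.76% and 2.71% of all genes in NP, dpc8 and dpc16. A few markers of other cell types passed in the same tests with all libraries. Of 5 biliary markers Sox9 was higher in zone 1 in NP and at dpc8. Of 6 Kupffer and other immune markers Clec4f was higher at dpc16. Of 13 connective tissue and smooth muscle markers Dcn was lower at dpc8 and Lum at dpc16. Of 6 endothelial and 4 stellate markers 0 passed. In such bulk samples, fewer cells that express a gene cannot be told apart from less RNA per cell.

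**Figure D1:**
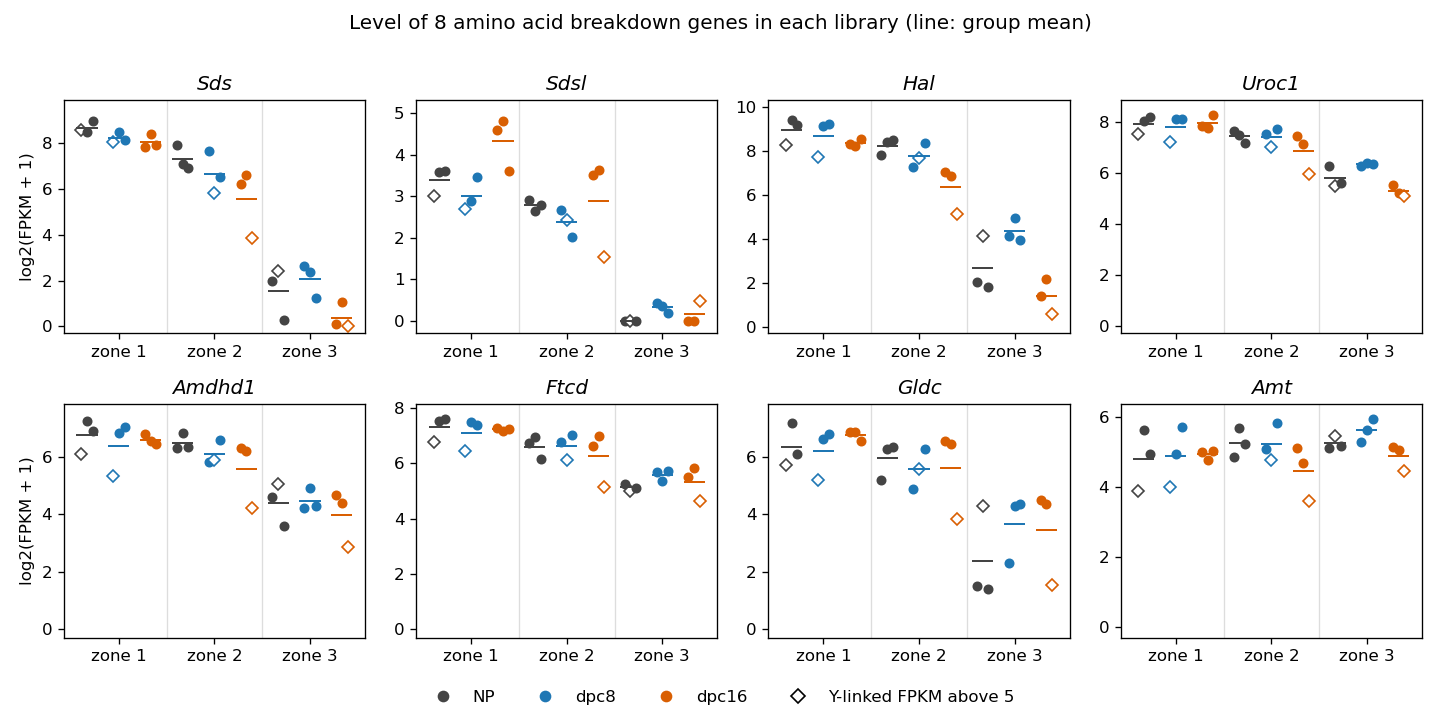
Level of each gene as log2(FPKM + 1) (vertical axis) in all 27 libraries, arranged by zone and coloured by stage; lines are group means and open diamonds are the 6 libraries whose Y-linked FPKM sum exceeds 5. Sds and Sdsl are near the bottom of the axis in zone 3, and every Hal value in zone 3 (at most 29.6 FPKM) is below every Hal value in zones 1 and 2 (33.8 FPKM or more), whereas Amt overlaps between zones.

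Sds showed the widest range of the 8 genes on this scale. In zone 1 it measured 375, 349 and 491 FPKM in NP, 258, 351 and 273 at dpc8, and 225, 331 and 241 at dpc16. In zone 2 the values were 240.0, 132 and 120 in NP, 201, 54.5 and 89.7 at dpc8, and 71.9, 95.9 and 13.6 at dpc16. In zone 3 they were 2.97, 4.26 and 0.197 in NP, 5.15, 4.09 and 1.34 at dpc8, and 0.0737, 1.06 and 0 at dpc16. Every zone 3 library was below every zone 2 library, and zone 1 and zone 2 overlapped only when stages were pooled. The zone 1 minus zone 3 difference was 7.10 ± 0.60 (SE, n = 3 libraries per group) in NP (limma adjusted p = 7.8e-08), 6.13 ± 0.60 at dpc8 (8.3e-07) and 7.65 ± 0.60 at dpc16 (2.1e-08). These sizes depend on the pseudocount of 1, because zone 3 values were near 0, and with a pseudocount of 0.1 they were 7.98, 6.53 and 9.91 (4.02e-06, 8.78e-05 and 1.18e-07).

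Sdsl followed the same order at a much lower level. In zone 1 it measured 7.03, 11.1 and 11.2 FPKM in NP, 5.48, 6.40 and 10.1 at dpc8, and 23.2, 27.3 and 11.1 at dpc16. In zone 2 it measured 6.54, 5.24 and 5.96 in NP, 5.37, 4.34 and 3.08 at dpc8, and 10.3, 11.5 and 1.89 at dpc16. In zone 3 it was listed at 0 in all 3 NP libraries, at 0.352, 0.277 and 0.146 at dpc8, and at 0, 0 and 0.386 at dpc16. These zone 3 values correspond to few reads, so no fold change is given for NP, where the limma adjusted p of zone 1 against zone 3 was 1.22e-05. The difference was 2.69 ± 0.41 at dpc8 (adjusted p = 0.000303) and 4.18 ± 0.41 at dpc16 (4.97e-07). Its size depends on the pseudocount of 1, since with a pseudocount of 0.1 the differences were 4.37 (limma adjusted p = 0.000109) and 6.83 (1.07e-07).

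All 4 enzymes of histidine breakdown had a higher mean in zone 1 than in zone 3 at each stage. Hal, the first, measured 304, 662 and 569 FPKM in zone 1 of NP, 209, 548 and 595 at dpc8, and 313, 298 and 368 at dpc16. In zone 3 it measured 3.14, 16.5 and 2.49 in NP, 16.7, 29.6 and 14.4 at dpc8, and 1.63, 3.53 and 0.493 at dpc16. The groups did not overlap at any stage, and the zone 1 minus zone 3 difference was 6.27 ± 0.58 in NP (adjusted p = 3.22e-07), 4.34 ± 0.58 at dpc8 (6.15e-05) and 6.96 ± 0.58 at dpc16 (4.08e-08). Zone 2 values of Hal were 220, 338 and 356 in NP, 154, 203 and 328 at dpc8, and 131, 116 and 33.8 at dpc16.

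Uroc1, the second enzyme, kept a level of 33.6 to 83.3 FPKM in zone 3. In NP it measured 183, 262 and 296 FPKM in zone 1 against 77.7, 44.1 and 48.3 in zone 3. At dpc8 the values were 149, 282 and 278 against 77.6, 83.3 and 80.9, and at dpc16 they were 232, 217 and 313 against 45.8, 36.4 and 33.6. Zones 1 and 3 did not overlap at any stage, with differences of 2.12 ± 0.33 (adjusted p = 0.00046), 1.48 ± 0.33 (0.0179) and 2.68 ± 0.33 (1.43e-05) in NP, dpc8 and dpc16. The dpc8 call was lost (adjusted p 0.0633 to 0.101) without any one of replicates 2 and 3 of zone 1 and replicates 1, 2 and 3 of zone 3, and when only the 2 groups entered the fit (0.0695). Without the 6 libraries the dpc8 difference was 1.79 (7.7e-05).

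Amdhd1, the third enzyme, measured 68.3, 151 and 119 FPKM in zone 1 of NP against 23.3, 32.0 and 10.9 in zone 3, a difference of 2.35 ± 0.54 (adjusted p = 0.026). At dpc16 it measured 110, 93.3 and 85.8 against 24.6, 19.9 and 6.26, a difference of 2.62 ± 0.54 (0.00783). At dpc8 the values were 38.9, 113 and 130 against 17.6, 28.9 and 18.6, which did not overlap, with an adjusted p of 0.0836 (9.97e-05 without the 6 libraries, and 0.0276 without zone 1 replicate 1 alone). The NP call was lost without replicate 2 or 3 of zone 1 or replicate 1 or 3 of zone 3 (adjusted p 0.0706 to 0.209) and with only the 2 groups in the fit (0.108). The dpc16 call was lost without replicate 3 of zone 3 (0.0771).

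Ftcd, the last enzyme, measured 108, 185 and 194 FPKM in zone 1 of NP against 37.4, 31.2 and 33.9 in zone 3, a difference of 2.17 ± 0.40 (adjusted p = 0.00289). At dpc16 it measured 154, 143 and 150 against 45.0, 55.8 and 24.2, a difference of 1.89 ± 0.40 (0.00953), and this call was lost without replicate 3 of zone 3 (0.0873). At dpc8 the values were 85.5, 180 and 168 against 50.6, 40.4 and 52.3, with an adjusted p of 0.0583 (3.57e-05 without the 6 libraries, and 0.0283 without zone 1 replicate 1 alone). The 2 groups did not overlap at any stage.

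Gldc and Amt encode subunits of the same enzyme system and had different patterns. Gldc measured 51.4, 144 and 68.6 FPKM in zone 1 of NP against 1.80, 18.4 and 1.60 in zone 3, a difference of 3.96 ± 0.85 (adjusted p = 0.0134). At dpc8 it measured 36.2, 97.9 and 110 against 3.98, 18.7 and 19.5 (adjusted p = 0.17), and at dpc16 115, 116 and 93.7 against 21.4, 19.7 and 1.89 (0.0507). The groups did not overlap at any stage. Same-numbered dpc16 libraries varied together across zones, and with replicate number as a block the dpc16 difference of 3.30 passed (adjusted p = 0.000594), as it did without the 6 libraries (2.34, 0.0212) and without zone 3 replicate 1 (3.81, 0.0486). Without the 6 libraries the dpc8 difference also passed (3.06, 0.00296). The NP call was lost without replicate 2 of zone 1 or replicate 1 or 3 of zone 3 (0.101 to 0.116) and with only the 2 groups in the fit (0.132). The NP zone 3 value of 18.4 FPKM is from 1 of the 6 libraries, and the NP difference was 3.46 to 5.22 across the settings tried.

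Amt measured 13.8, 48.2 and 29.6 FPKM in zone 1 of NP against 33.9, 42.8 and 35.0 in zone 3. The values were 14.9, 30.1 and 51.7 against 38.5, 48.9 and 60.8 at dpc8, and 31.3, 26.5 and 31.5 against 34.3, 32.1 and 20.9 at dpc16. The groups overlapped at every stage. The 95% interval of the zone 1 minus zone 3 difference was -1.34 to 0.47 in NP, -1.65 to 0.16 at dpc8 and -0.85 to 0.97 at dpc16, and its sign in NP and at dpc16 turned when the 6 libraries were left out. The other subunits tested, Gcsh and Dld, passed no zone comparison: group means were 49.9 to 85.2 FPKM for Gcsh and 36.2 to 44.4 for Dld.

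**Figure D2:**
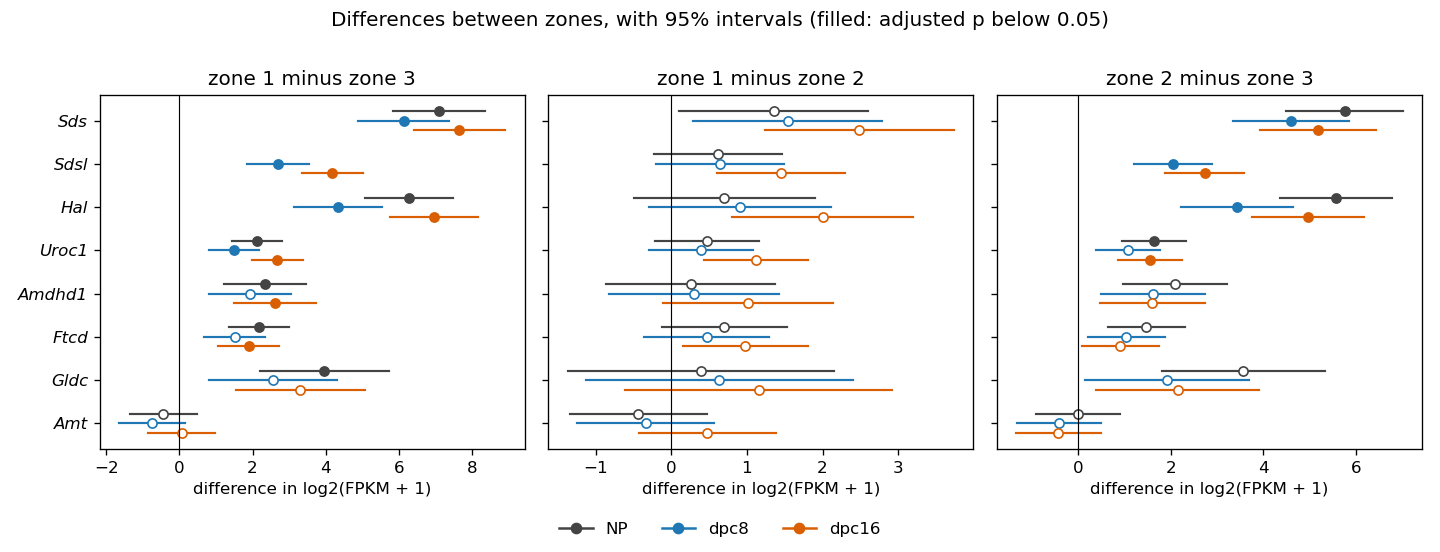
Differences in log2(FPKM + 1) between zones (horizontal axis) for each gene with 95% intervals, by stage; filled points have a limma adjusted p below 0.05, and Sdsl in NP is not drawn against zone 3, where it is listed at 0. Filled points are all to the right of 0, none is in the zone 1 minus zone 2 panel, and the intervals of Amt include 0.

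In zone 2, Uroc1 ranged from 61.7 to 211 FPKM over the 9 libraries, Amdhd1 from 17.8 to 114, Ftcd from 34.1 to 130, Gldc from 13.3 to 93.5 and Amt from 11.1 to 55.8. The lowest zone 2 value of each of the 8 genes was in replicate 3 of dpc16, which is among the 6 libraries that stood apart. Zone 2 exceeded zone 3 for 4 genes in NP (Sds, Sdsl, Hal and Uroc1), 3 at dpc8 (Sds, Sdsl and Hal) and the same 4 as in NP at dpc16, against 0.401%, 0.347% and 0.517% of all genes. The differences of Sds were 5.75 ± 0.60, 4.59 ± 0.60 and 5.17 ± 0.60, with adjusted p of 5.99e-06, 0.000211 and 2.2e-05 in limma, and those of Hal were 5.56 ± 0.58, 3.43 ± 0.58 and 4.96 ± 0.58 (5.6e-06, 0.00446 and 2.2e-05). Sdsl passed with adjusted p of 0.000608, 0.0183 and 0.000642, and Uroc1 with 0.0184 in NP and 0.0268 at dpc16. The counts without the 6 libraries were 7, 6 and 6, against 0.842%, 0.494% and 0.749% of all genes. With only the 2 groups in the fit none of the 4 dpc16 calls was kept (0.0386% of all genes passed), and the NP call of Uroc1 was lost (0.0973).

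Several of these zone 2 calls depended on single libraries. Uroc1 in NP was lost without replicate 1 or 2 of zone 2 or replicate 2 or 3 of zone 3 (adjusted p 0.0739 to 0.128). Sdsl at dpc8 was lost without replicate 1 or 2 of zone 2 or any one replicate of zone 3 (0.068 to 0.13) and under quantile normalization (0.123), and Uroc1 at dpc16 without replicate 1 or 2 of zone 2 or any one replicate of zone 3 (0.0738 to 0.257). In the other direction, Gldc in NP passed without zone 3 replicate 2 (0.0132) and Amdhd1 at dpc16 without zone 2 replicate 3 (0.0433). Between zone 1 and zone 2, 0 of the 8 genes passed at any stage in limma, and 1, 1 and 5 had an unadjusted p under 0.05 in NP, dpc8 and dpc16; over all genes 0.154%, 0.124% and 0.139% passed.

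More members, and more of all genes, passed when the connective tissue score was a covariate. For zone 1 minus zone 3 at dpc8, 7 members passed against 2.35% of all genes. For zone 2 minus zone 3, 7 passed in NP against 0.942% and 6 at dpc8 against 0.494%, while for zone 1 minus zone 2 in NP the single call was Ftcd (1.08, limma adjusted p = 0.0389), against 0.27%. With replicate number as a block, 7 members passed for zone 1 minus zone 3 at dpc8 and 7 at dpc16, against 3.54% and 2.65% of all genes, and of these 2 stages the numbers paired the libraries at dpc16.

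To compare the zone patterns of 2 genes directly, differences between them were taken within each library. A factor that scales both genes alike cancels only where both levels are well above the pseudocount of 1, which was not so for some Hal and Gldc values in zone 3. In 9 of 9 zone 1 libraries Hal was above Uroc1, by 0.23 to 1.33 on the log2(FPKM + 1) scale, and in 9 of 9 zone 3 libraries it was below, by -4.53 to -1.37. The mean change of this difference between zone 1 and zone 3 was 3.76 (two-sided exact permutation of zone labels within stages, p = 0.00025, the smallest possible; 0.0005 adjusted over 4 pairs). Gldc was above Amt in 9 of 9 zone 1 libraries and in 0 of 9 zone 3 libraries, a change of 3.64 (exact permutation p = 0.00025, adjusted 0.0005). The change for Uroc1 against Amdhd1 was -0.20 (exact p = 0.43, adjusted 0.43) and that for Amdhd1 against Ftcd was 0.44 (exact p = 0.0675, adjusted 0.09). Without the 6 libraries the last pair passed (0.57, exact p = 0.03, adjusted 0.04) and the first 2 pairs remained past the threshold (adjusted 0.00334 each). These pairs and this test were chosen after the values had been seen, so the p-values only describe the differences. The permutation also treated libraries of a stage as exchangeable, although same-numbered dpc16 libraries varied together across zones.

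**Figure D3:**
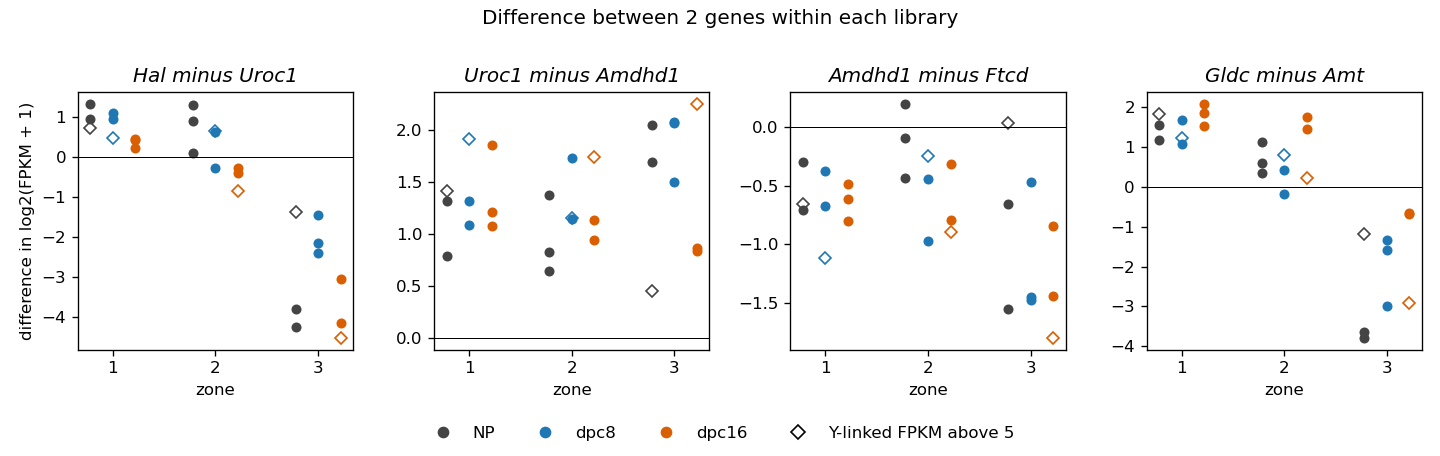
Difference in log2(FPKM + 1) between 2 genes (vertical axis) in each library by zone (horizontal axis), coloured by stage, with open diamonds for the 6 libraries with Y-linked FPKM. Hal minus Uroc1 and Gldc minus Amt are above 0 in all zone 1 libraries and below 0 in all zone 3 libraries.

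The second question was whether the genes changed with pregnancy within a zone. Of the 8 genes, 0 passed in limma between dpc8 and NP in any zone. An unadjusted p under 0.05 was reached by 0, 0 and 1 of them in zones 1, 2 and 3, and 0.0309%, 0.00772% and 0.0154% of all genes passed. Between dpc16 and NP, 0 passed (1, 2 and 1 unadjusted), whereas 1.37%, 2.66% and 1.32% of all genes passed. Between dpc16 and dpc8, 0, 0 and 1 of the 8 genes passed (1, 1 and 3 unadjusted), against 2.01%, 1.51% and 1.37% of all genes.

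The gene that passed was Hal, which was lower at dpc16 than at dpc8 in zone 3, by -2.96 ± 0.58 (limma adjusted p = 0.00805). All dpc16 zone 3 libraries were below all dpc8 zone 3 libraries. The call was lost without dpc8 zone 3 replicate 2 (-2.66, 0.0682) or dpc16 zone 3 replicate 3 (-2.56, 0.0508), while without the 6 libraries it was kept (-2.56, 0.000206). Without those libraries Hal was also higher at dpc8 than in NP in zone 3 (2.42, 0.00731), where 0.0695% of all genes passed. The NP zone 3 library left out there measured 16.5 FPKM, within the dpc8 range of 14.4 to 29.6. The NP libraries kept measured 3.14 and 2.49. Without the 6 libraries Hal was also lower at dpc16 than in NP in zone 2 (-1.27, 0.0383), where 4.45% passed. With the covariate Hal was lower at dpc16 than in NP in zone 2 as well (-1.74, 0.0375), where 6.28% of all genes passed.

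Some markers of other positions and cell types moved in the same zone 3 comparison. Between dpc16 and dpc8 in zone 3, 3 of 11 periportal hepatocyte markers were lower and 0 higher in limma. Lower too were 2 of 6 tested markers of Kupffer and other immune cells and 1 of 4 stellate cell markers. Of 11 pericentral, 13 connective tissue and smooth muscle, 6 endothelial, 5 biliary and 2 erythroid markers tested, 0 passed. Over all genes 1.37% passed. When the 6 libraries were left out, 5 of the periportal markers were lower and 1 was higher, and 1 pericentral marker was lower. The other counts did not change, and 3.87% of all genes passed. The summed FPKM of the periportal markers in zone 3 was 1571 to 3306 in NP, 1347 to 3227 at dpc8 and 368 to 1394 at dpc16. Cyp2f2, a periportal cytochrome P450, lay between 0.716 and 6.60 FPKM in zone 3 of NP, between 9.24 and 19.98 at dpc8 and between 0.764 and 3.06 at dpc16, so that its dpc8 values were above those of the other stages. Between dpc8 and NP in zone 3, 0 of the 11 periportal markers passed, and Cyp2f2 alone was higher without the 6 libraries. The part of these markers in the Hal result was not tested.

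For other genes, calls with pregnancy appeared only under an alternative. In zone 3, Gldc without the 6 libraries was higher at dpc16 (21.4 and 19.7 FPKM) than in NP (1.80 and 1.60), by 3.00 (adjusted p = 0.00766), whereas the libraries left out measured 1.89 and 18.4; over all genes 3.61% then passed. In zone 1, Sdsl was higher at dpc16 than at dpc8 without the 6 libraries (1.16, 0.0454, where 4.38% of all genes passed) and without dpc16 zone 1 replicate 3 (1.69, 0.0487). In zone 3, Uroc1 was lower at dpc16 than at dpc8 without the 6 libraries (-0.96, 0.0166, where 3.87% of all genes passed) and with the covariate (-0.93, 0.0396, where 3.69% passed). Sds was lower there with a pseudocount of 0.1 (-3.54, 0.045, where 1.41% of all genes passed), against -1.68 (limma adjusted p = 0.199) with a pseudocount of 1. Its dpc16 values of 0.0737, 1.06 and 0 FPKM were near the floor, so the size depends on the pseudocount.

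**Figure D4:**
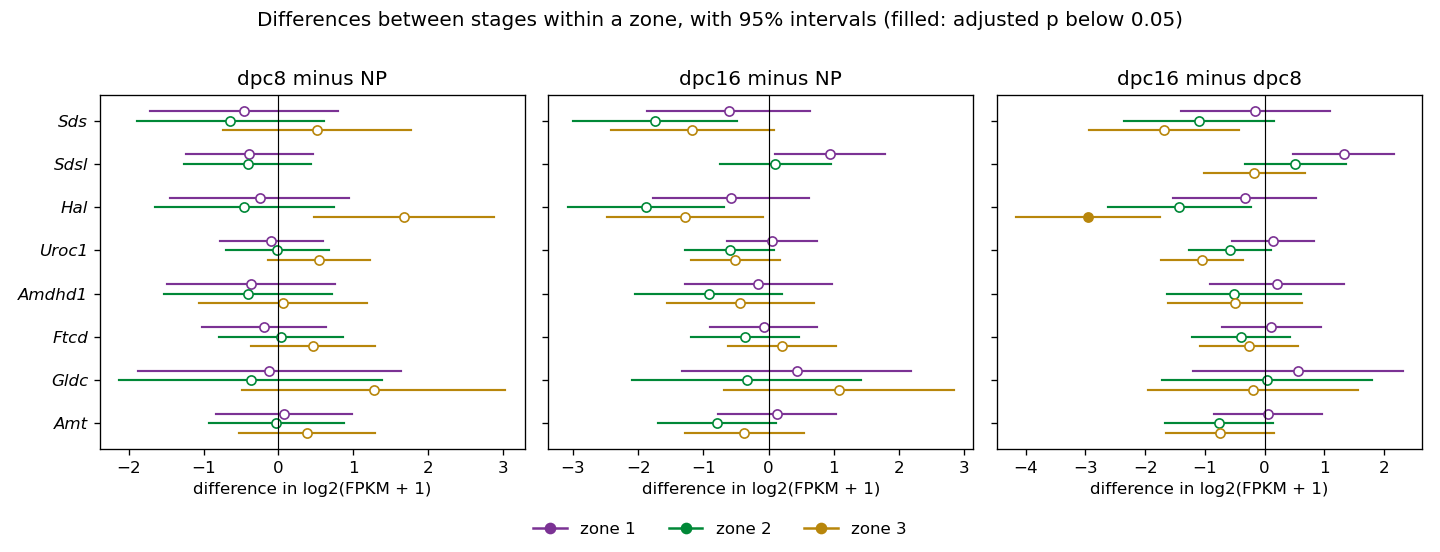
Differences in log2(FPKM + 1) between stages within zones 1, 2 and 3 (horizontal axis) for each gene with 95% intervals; filled points have a limma adjusted p below 0.05, and Sdsl in zone 3 is not drawn against NP. The single filled point is Hal in zone 3, dpc16 minus dpc8, at -2.96.

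Whether the change with pregnancy differed between zone 1 and zone 3 was tested directly. No member passed for dpc8 minus NP (0 of 8 in limma, 1 at an unadjusted p under 0.05, 0% of all genes) or for dpc16 minus NP (0 of 8, 0 unadjusted, 0.054% of all genes). The gene with the unadjusted p was Hal, whose dpc8 change was smaller in zone 1 than in zone 3 by -1.93 ± 0.82 (adjusted p = 1).

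A list of 24 other genes of serine, glycine, threonine, histidine and folate metabolism was examined in the same fits, and 22 could be tested; Dao and Tdh were listed at 0. In zone 1 minus zone 3, 0 of the 22 passed at any stage in limma (2, 1 and 2 at an unadjusted p under 0.05), and their median differences were 0.12, -0.08 and 0.29. Shmt1 and Shmt2, which interconvert serine and glycine, had group means of 119 to 183 and 66.8 to 100 FPKM. Across the 20 comparisons 1 gene passed once: Aldh1l1, a folate enzyme, was lower at dpc16 than at dpc8 in zone 3, by -1.56 (adjusted p = 0.037), and it is named after its values were seen.

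These counts depended on the 6 libraries. Without them 24 calls were made, in 10 of the 20 comparisons, and with the connective tissue score as covariate 19 calls, in 7 of them. Calls over all genes rose too: the 22 genes gave 0.227% of their 440 tests with all libraries and no covariate, 5.45% without the 6 libraries and 4.32% with the covariate, against 0.826%, 1.67% and 1.82% over all genes in the same 20 comparisons. The comparisons share libraries and the same genes recur among the calls, so these tests are not independent. In zone 1 minus zone 3 without the 6 libraries, 2 of the 22 genes passed in NP, 0 at dpc8 and 1 at dpc16. Agxt, the alanine-glyoxylate aminotransferase, was higher in zone 1 of NP by 1.16 (limma adjusted p = 0.01). The dipeptidase Cndp2 was lower there (-1.74, 0.000838), and Mthfd1l, a mitochondrial folate enzyme, was higher in zone 1 at dpc16 (1.32, 0.0116). Between dpc16 and NP, 2, 1 and 5 of the 22 passed in zones 1, 2 and 3, against 2.92% of all genes in zone 1 and the shares given above in the others. Between dpc16 and dpc8, 3, 4 and 4 passed, against 4.38%, 3.91% and 3.87% of all genes in zones 1, 2 and 3. Aldh1l1 and the glycine methyltransferase Gnmt were each lower in 5 of these 6 comparisons, whereas Psph, the last enzyme of serine synthesis, was higher at dpc16 in zone 3, by 1.75 against NP and 1.35 against dpc8 (0.00541 and 0.0153). These genes, too, are named after their values were seen.

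As a description, the genes whose log2(FPKM + 1) most resembled each member over the 27 libraries were ranked by Pearson's r. For members other than Amt, r mostly reflects differences between zones. What it reflects for Amt, which did not differ detectably between zones, was not tested. Hsd17b13 (r = 0.974), Cyp2f2 (0.967) and Gls2 (0.955) were closest to Sds, and Cyp2f2 (0.984), Hsd17b13 (0.974) and Aspg (0.967) to Hal. Aldh1b1 (0.968), Tent5c (0.951) and Cyp17a1 (0.933) were closest to Sdsl, and Hsd17b13 (0.967), Aspg (0.954) and Rida (0.945) to Uroc1. The closest to Amdhd1 was Ctsc (0.912), to Ftcd Slc3a1 (0.943) and to Gldc Hsd17b6 (0.899). The closest to Amt were Irgm2 (0.935), Abca8b (0.93) and Srr (0.916), and r between Amt and the other members was -0.175 to 0.191, whereas it was 0.806 to 0.965 among the other 7.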

How the data were processed

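The authors microdissected frozen sections, depleted ribosomal RNA, trimmed reads with cutadapt, aligned them to mm10 with HISAT2 2.1.0 and used Cuffdiff (Cufflinks 2.2.1) to obtain the deposited FPKM values of protein-coding genes in GENCODE. Libraries were grouped by the stage and zone in their labels, which do not tie libraries to animals, so p-values measure only the spread between libraries. In the main tests log2(FPKM + 1) was fitted in limma (version 3.58.1, R 4.3.3) with an intensity trend and robust settings, on genes at 1 FPKM or more in at least 3 libraries. One mean was fitted per group over all 27 libraries, and p-values were adjusted by Benjamini-Hochberg within each of 20 comparisons at a threshold of 0.05. The scale understates changes of low genes. limma was used because Cuffdiff works on reads.

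The table gives no counts. Depth was estimated from steps in low values of single-transcript genes, taking the largest step that kept values within 0.1 of whole multiples (92.1% to 97.5% of values); it assumes a fragment length, and no interval was computed. The members and lists were chosen with earlier results of these data known. All 8 members are named in full, and the pathway genes are given mainly as counts, with some named after their values were seen. The 3 most similar genes of each member are given as a description, but only the closest for Amdhd1, Ftcd and Gldc. Replicate numbers were checked for pairing: deviations of same-numbered dpc16 libraries correlated across zones in 9 of 9 cases (r 0.263 to 0.863), against 4 of 9 in NP and 5 of 9 at dpc8. All 3 pairs were above 0.1 also for dpc8 zone 2 with zone 3 (r 0.322 to 0.355) and for NP with dpc8 in zone 1 (0.268 to 0.679) and zone 3 (0.105 to 0.212), and in no other comparison outside dpc16. Alternatives were a pseudocount of 0.1, no filter, quantile normalization, only the groups compared, a replicate block, a connective tissue covariate, leaving out the 6 libraries that stood apart and leaving out each library.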

Additional observations from a re-analysis of the deposited data

How the results depend on the processing

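Of 29 calls of the 8 genes, 17 were kept in every setting, 9 were lost in at least 1 setting other than leaving out a library, 9 were lost on leaving out at least 1 library, and none changed sign. Without the 6 libraries with Y-linked FPKM, the number of genes called became 7 for zone 1 minus zone 3 at dpc8, 7, 6 and 6 for zone 2 minus zone 3 in NP, dpc8 and dpc16 (the last within 1.5 times of 4), 1 for dpc8 minus NP in zone 3, 1 each for dpc16 minus NP in zones 2 and 3, 1 for dpc16 minus dpc8 in zone 1 and 2 in zone 3. With the connective tissue covariate it became 1 for zone 1 minus zone 2 in NP, 7 for zone 1 minus zone 3 at dpc8, 7 and 6 for zone 2 minus zone 3 in NP and at dpc8, 1 for dpc16 minus NP in zone 2 and 2 for dpc16 minus dpc8 in zone 3. With only the compared groups it was 0 for zone 2 minus zone 3 at dpc16, and with a pseudocount of 0.1 it was 2 for dpc16 minus dpc8 in zone 3. Leaving out 1 library gave 0 to 1 for dpc16 minus dpc8 in zones 1 and 3.

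Under the replicate block 7 genes were called for zone 1 minus zone 3 at dpc8, where the numbers did not pair the libraries, and Gldc was added at dpc16 (7 called), where they do; in the other comparisons in which the numbers pair the libraries the block changed no call of the 8 genes. The difference of Amt between zones 1 and 3 turned from -0.44 to 0.13 in NP without the 6 libraries (-0.84 to 0.029 on leaving out 1 library), and from 0.06 to -0.15 at dpc16 without the 6 libraries or with the covariate (-0.15 to 0.19 on leaving out 1 library). The exact test of Amdhd1 against Ftcd, a pair chosen after the values had been seen, passed without the 6 libraries (0.57, adjusted p = 0.04). The number of all genes called also rose, from 208 to 305 with the covariate and to 459 under the block for zone 1 minus zone 3 at dpc8, so the counts of the 8 genes are not to be read alone. The cause of these shifts was not tested. Values of a few reads, such as those of Sdsl in zone 3, limit what depth can show.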
